A study of Rattus norvegicus with 32 samples.

Results

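The genes described are 7 molecules by which leukocytes attach to blood vessel walls, namely Icam1, Icam2, Vcam1, Sele, Selp, Selplg and Aoc3. They were taken by symbol from the 32623 genes quantified in each library, and each symbol matched 1 gene. Their RNA was followed in liver sinusoidal endothelial cells (LSECs), the fenestrated endothelium of the hepatic sinusoids, in 32 libraries from rats. LSECs were isolated after liver perfusion and digestion by centrifugation in iodixanol, and poly(A) RNA was sequenced. In the CCl4 experiment, Wistar Han rats inhaled carbon tetrachloride (CCl4), a hepatotoxin, for 2 weeks (acute group, n = 5), 6 weeks (fibrosis group, n = 5) or 12 to 14 weeks (cirrhosis group, n = 6), and healthy libraries came from untreated Wistar Han rats (n = 6). The study's methods name male rats, phenobarbital in the drinking water of the CCl4 model, and an interval of days between the last toxicant and cell isolation. Whether RNA was taken from fresh or from cultured cells, and the age of the rats, are not given in the sources used here. In the thioacetamide (TAA) experiment, which concerns another hepatotoxin, 5 libraries are labelled control and 5 TAA control, and it was not settled which of them received TAA. The labels name Wistar Han for these libraries too, whereas the series description and the methods name Sprague-Dawley.

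Leukocytes first tether and roll on selectins, then arrest when their integrins bind members of the immunoglobulin superfamily, and then cross the vessel wall. E-selectin (Sele) is made on demand after cytokine stimulation, whereas P-selectin (Selp) is also stored in Weibel-Palade bodies of endothelium and in granules of platelets. PSGL-1 (Selplg) is the leukocyte ligand of P-selectin, ICAM-1 and ICAM-2 are ligands of the integrin LFA-1, VCAM-1 is the ligand of the integrin VLA-4, and VAP-1 (Aoc3) is an amine oxidase that also mediates adhesion. In the liver, sinusoids normally express little selectin, and leukocytes adhere there largely through ICAM-1, VCAM-1 and VAP-1.

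Transcription of Icam1 and Vcam1 is induced by NF-κB, and the 250 bases before their start sites are shown for the κB-like letters that they hold. The promoter table from RefSeq (build GRCr8, another build than the one used for mapping) matched 3 of the 7 genes, Icam1, Vcam1 and Sele. Capitals mark, on either strand, a loose κB motif (GGG and CC with 5 bases of any kind between them) or the κB-like letters GGAAATTCC.
Icam1, chr8:27829595-27829844, + strand: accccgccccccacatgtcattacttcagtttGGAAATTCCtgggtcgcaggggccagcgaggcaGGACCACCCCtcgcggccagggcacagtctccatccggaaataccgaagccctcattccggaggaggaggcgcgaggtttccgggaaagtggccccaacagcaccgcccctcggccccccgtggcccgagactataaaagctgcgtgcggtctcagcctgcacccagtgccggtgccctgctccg
Vcam1, chr2:206742784-206743033, - strand: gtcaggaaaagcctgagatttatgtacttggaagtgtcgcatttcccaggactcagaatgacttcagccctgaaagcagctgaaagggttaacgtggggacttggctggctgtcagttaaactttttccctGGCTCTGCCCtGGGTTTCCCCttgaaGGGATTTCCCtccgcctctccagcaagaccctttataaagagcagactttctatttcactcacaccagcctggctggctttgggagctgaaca
The Vcam1 window held the loose motif at 3 positions, beginning 119, 108 and 93 bases before the start site. Of 33469 windows of the same length, 42.3% held it. In the Icam1 window it began 185 bases before the start site, and GGAAATTCC, which 0.287% of windows held, began 218 bases before it. The window listed for Sele lies inside the span that the RefSeq gene table gives for the gene, held neither motif and is not shown. A match describes letters and does not show that a factor was bound.

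Totals ranged from 25646531 to 46464289 expected counts per library. Levels are given as CPM, which are counts relative to a common library total, scaled with TMM factors separately within the CCl4 and the TAA experiment, so levels are not compared between the experiments. A gene was called when its adjusted p from limma-voom (Benjamini-Hochberg over all genes tested) was under 0.05 and its fold-change above 1.5. Endothelial identity was checked with 8 pan-endothelial markers, which summed to 7710 to 14600 CPM in healthy, 2760 to 3860 in acute, 2140 to 2730 in fibrosis and 7640 to 9630 CPM in cirrhotic libraries, with none at 0. Of these, 6 (Egfl7, Emcn, Flt1, Kdr, Tek and Tie1) were called lower both after acute injury and at fibrosis. Of all genes tested, 37.9% and 34.9% were called lower at these stages. Erg went the other way after acute injury, where it was called higher (137.8 ± 34.49 against 77.66 ± 53.5 CPM in healthy libraries). It was not called at fibrosis. In cirrhosis Emcn and Erg were called higher and Egfl7 and Tie1 lower. Cdh5, which encodes VE-cadherin, was at 1293 ± 430.2 CPM in healthy (SD, n = 6), 1597 ± 335.7 in acute (n = 5), 1040 ± 123 in fibrosis (n = 5) and 1506 ± 179.5 in cirrhosis libraries (n = 6). Cdh5 was not called in any comparison with healthy LSECs. The summed level of 8 LSEC markers was between 12600 and 22400 CPM in healthy and between 11800 and 15000 CPM in cirrhotic libraries, but between 2020 and 2430 CPM in acute and 1390 and 2280 CPM in fibrosis libraries, with none of the 8 at 0. After acute injury 7 were called lower and Lyve1 was not called, and at fibrosis all 8 were called lower. In cirrhosis Lyve1 was called higher and Gata4, Oit3 and Stab1 lower. The 10 early-response genes of a dissociation list, Fos and Jun among them, summed to 44300 to 76300 CPM in healthy, 1020 to 2630 in acute, 2050 to 3290 in fibrosis and 20700 to 45400 CPM in cirrhotic libraries. The part of these differences in the results below was not tested. In bulk RNA, fewer cells of a type and less RNA per cell cannot be told apart. No preparation date or batch is named, so a batch that follows the groups cannot be told apart from them. The closest pair of libraries, replicates 14 and 15 among those labelled TAA control, was far nearer than others (chi-square per degree of freedom 3.05, against at least 25.2 for pairs in the other groups), and both were kept.

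All 7 adhesion genes were lower after 2 weeks of CCl4 than in healthy LSECs, and 6 of them after 6 weeks. In cirrhosis the genes parted: Sele, Selp and Aoc3 were higher than in healthy LSECs, Icam1 and Icam2 lower, and Vcam1 and Selplg were not called. Calls covered 73.4%, 70.2% and 51.8% of all genes tested at the 3 stages, with 37.9%, 34.9% and 24.7% called lower and 35.5%, 35.3% and 27.1% called higher, so a call by itself sets no gene apart here. With library size alone in place of TMM factors, the share of called genes that were higher moved from 50.3% to 60.9% at fibrosis and from 52.2% to 71.3% in cirrhosis. The groups did not overlap in 6, 3 and 2 of the 7 genes, beside 60%, 58.7% and 27.2% of all genes tested. The median log2 fold change of the 7 genes was -3.68 after acute injury, -2.11 at fibrosis and 0.68 in cirrhosis, beside -0.09, -0.03 and 0.07 over all genes tested. The stages share their healthy libraries. Between fibrosis and cirrhosis all 7 genes were called higher, where 34.3% of all genes tested were higher and 63.8% called in all, and 6 were free of overlap, as were 63.3% of all genes. Between acute injury and cirrhosis all 7 were again called higher, where 37.5% were higher and 69.3% called in all, and none overlapped, beside 65.9% of all genes. Between acute injury and fibrosis 3 genes were called, Vcam1, Sele and Selp, all higher at fibrosis, where 11% of all genes tested were called and 10.2% higher. Of the 7, Vcam1 and Sele did not overlap there, beside 17.2% of all genes.

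**Figure D1:**
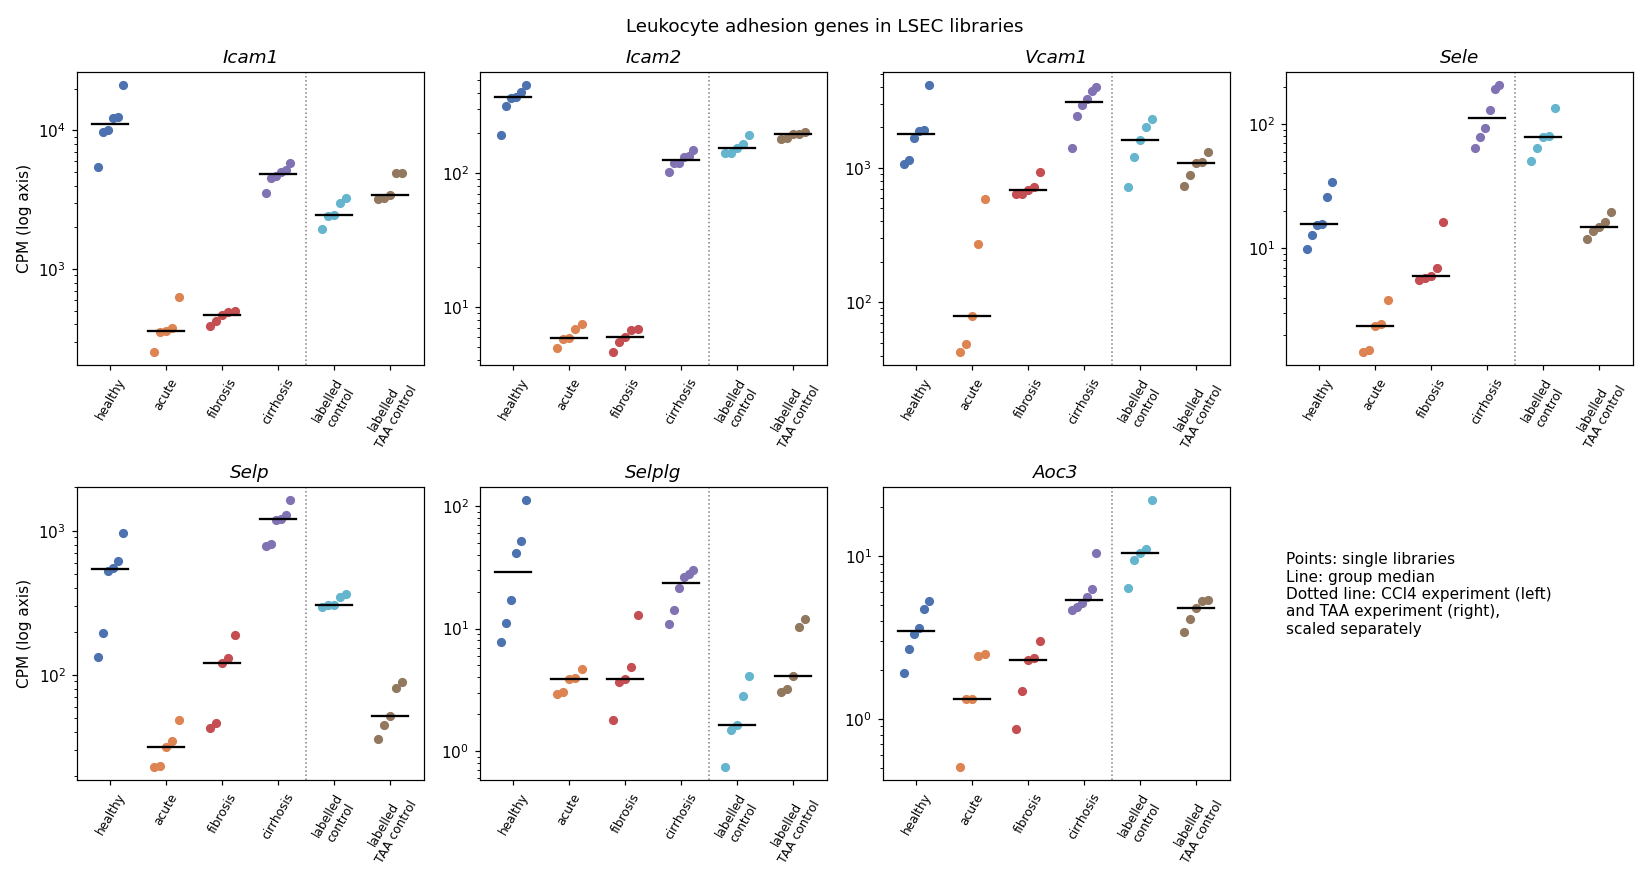
CPM of the 7 genes in each library on log axes, with points for libraries, black lines for group medians and a dotted line between the CCl4 and TAA experiments, which were scaled separately. Icam2 sat below 8 CPM in every acute and fibrosis library and above 100 CPM in every healthy and cirrhotic one. Sele, Selp, Vcam1 and Aoc3 had their highest CCl4 medians in cirrhosis, at 111, 1202, 3092 and 5.36 CPM.

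Among the integrin ligands, Icam1 (ENSRNOG00000020679) was at 5451 CPM in the lowest healthy library, 11170 CPM in the median and 21140 CPM in the highest. Acute libraries 1, 2, 3, 4 and 8 had 375.7, 253.1, 352.3, 359 and 631.2 CPM. Fibrosis libraries 12, 13, 15, 16 and 17 had 423.3, 391.2, 502.2, 464.6 and 487 CPM. Every acute and fibrosis library therefore lay far below the lowest healthy one. Icam1 fell 28.4-fold after acute injury (log2 fold change -4.83, SE 0.306, limma-voom adjusted p = 4.67e-08) and 23.2-fold at fibrosis (log2 fold change -4.54, SE 0.26, adjusted p = 2.73e-08). Acute and fibrosis libraries overlapped, and the difference between them was not called (log2 fold change 0.34, SE 0.198, limma-voom adjusted p = 0.243).

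Cirrhotic libraries stood between these and the healthy ones, from 3560 CPM over a median of 4855 to 5806 CPM. That range reached into the healthy range through healthy replicate 6, the lowest of its group. Icam1 was 2.3-fold lower in cirrhotic than in healthy LSECs (log2 fold change -1.20, SE 0.266, limma-voom adjusted p = 0.00233), and 10.5-fold higher than at fibrosis (log2 fold change 3.39, SE 0.117, adjusted p = 3.28e-10).

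Icam2 (ENSRNOG00000025143), which endothelium expresses constitutively and which also lies at cell junctions, had the sharpest loss of the 7. Healthy libraries ranged from 193.7 over a median of 369.5 to 454.7 CPM. The acute libraries had 4.93, 7.46, 5.86, 6.82 and 5.75 CPM in the same order as above, and the fibrosis libraries 6, 6.68, 6.82, 5.42 and 4.61 CPM. These groups were narrow and nowhere near the healthy range. Icam2 fell 54.2-fold after acute injury (log2 fold change -5.76, SE 0.243, limma-voom adjusted p = 3e-09) and 55.5-fold at fibrosis (log2 fold change -5.80, SE 0.242, adjusted p = 4.49e-09). Of all genes tested at fibrosis, 1.55% had a larger absolute log2 fold change.

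No difference in Icam2 was detected between fibrosis and acute injury, with a log2 fold change of 0.01 (SE 0.154, limma-voom adjusted p = 0.978). Cirrhotic libraries ranged from 102.4 over a median of 126 to 150.2 CPM, below every healthy library. Their log2 fold change was -1.43 against healthy LSECs (SE 0.201, limma-voom adjusted p = 0.000163) and 4.42 against fibrosis (SE 0.144, adjusted p = 2.6e-10). For Icam2 the order was thus healthy, cirrhosis, and then fibrosis and acute injury, which did not differ beyond their spread.

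Vcam1 (ENSRNOG00000014333), the ligand for monocyte and lymphocyte VLA-4, behaved otherwise at the late stages. Healthy libraries ranged from 1059 over a median of 1775 to 4117 CPM. In the acute libraries it was at 78.98, 49.13, 272.9, 42.6 and 587.5 CPM, a wide spread with replicates 3 and 8 above the rest. The fibrosis libraries had 717, 684.6, 923.3, 641.1 and 634.1 CPM, all above the acute libraries and below the healthy ones. Vcam1 was 14.2-fold lower after acute injury (log2 fold change -3.82, SE 0.644, limma-voom adjusted p = 0.00016) and 2.36-fold lower at fibrosis than in healthy LSECs (log2 fold change -1.24, SE 0.29, adjusted p = 0.00202). At fibrosis it was 6.22-fold higher than after acute injury (limma-voom adjusted p = 0.0215). That call was lost without acute replicate 1 (log2 fold change 2.47, limma-voom adjusted p = 0.0556) or 2 (2.30, adjusted p = 0.0506), and under the quasi-likelihood test of edgeR (1.88, adjusted p = 0.0733).

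In cirrhosis Vcam1 ranged from 1406 over a median of 3092 to 3986 CPM and overlapped with the healthy range. Against healthy LSECs it had a log2 fold change of 0.68 (SE 0.328, limma-voom adjusted p = 0.0912), which is not a call. Leaving out healthy replicate 3, the highest of its group at 4117 CPM, made it one (log2 fold change 0.92, limma-voom adjusted p = 0.012), as did leaving out cirrhotic replicate 2, the lowest of its group (0.86, adjusted p = 0.0225). It was also called with quality weights per library (0.88, limma-voom adjusted p = 0.014), with upper-quartile factors (0.82, adjusted p = 0.0364), with library size alone (1.03, adjusted p = 0.0113) and with the replicate number as a block (0.68, adjusted p = 0.0217). Against fibrosis, Vcam1 was 3.94-fold higher in cirrhosis (limma-voom adjusted p = 5.87e-06), and these groups did not overlap.

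The selectins had their lowest median levels of the CCl4 course after acute injury and their highest in cirrhosis. This was not particular to them, since the medians of Vcam1 and Aoc3 ran in the same order, although not every step of these genes was called. Sele (ENSRNOG00000002723) ranged in healthy LSECs from 9.92 over a median of 15.6 to 34.5 CPM. Acute libraries had 1.52, 1.47, 2.44, 2.37 and 3.85 CPM, and fibrosis libraries 5.77, 6.99, 16.4, 5.54 and 5.95 CPM, where replicate 15 stood apart from the other 4. The acute libraries lay below every healthy library, and the fibrosis libraries overlapped with the healthy ones. Sele was 7.79-fold lower after acute injury (log2 fold change -2.96, SE 0.4, limma-voom adjusted p = 2.68e-05) and 2.27-fold lower at fibrosis than in healthy LSECs (log2 fold change -1.18, SE 0.37, adjusted p = 0.0117).

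Cirrhotic libraries held the most Sele, from 64 over a median of 111.1 to 205.2 CPM, above every healthy, acute and fibrosis library. The rise over healthy LSECs was 6.7-fold (log2 fold change 2.74, SE 0.35, limma-voom adjusted p = 0.000119), and 1.74% of all genes tested there had a larger absolute change. Over fibrosis it was 15.9-fold and over acute injury 53.2-fold (log2 fold changes 3.99 and 5.73, limma-voom adjusted p = 2.7e-06 and 5.56e-07). Between acute injury and fibrosis Sele was 3.53-fold higher (limma-voom adjusted p = 0.0101), so each step in the order of acute injury, fibrosis, healthy and cirrhosis was called, although the first was not in a single fit over the 4 groups (log2 fold change 1.74, adjusted p = 0.0511) and the second was not with library size in place of TMM factors (-0.79, adjusted p = 0.0654).

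Selp (ENSRNOG00000002794) followed the same order. Healthy libraries ranged from 133.3 over a median of 541.9 to 960.7 CPM. Acute libraries had 22.9, 35, 31.4, 48.8 and 23.2 CPM, below every healthy library. Fibrosis libraries had 46, 120.7, 43, 130.9 and 189.6 CPM, of which the highest lay inside the healthy range. Selp was 12.8-fold lower after acute injury (log2 fold change -3.68, SE 0.468, limma-voom adjusted p = 1.66e-05) and 4.31-fold lower at fibrosis (log2 fold change -2.11, SE 0.553, adjusted p = 0.00424). In cirrhosis it ranged from 786.8 over a median of 1202 to 1623 CPM, 2.75-fold above healthy LSECs (log2 fold change 1.46, SE 0.438, adjusted p = 0.0124), although healthy replicate 3 lay among the cirrhotic libraries. The rise over fibrosis was 12.4-fold and that over acute injury 35.8-fold (limma-voom adjusted p = 4.48e-06 and 1.01e-09), without overlap. The step from acute injury to fibrosis was 3.04-fold (adjusted p = 0.0283), and leaving out any of acute replicates 1, 2 and 3 or fibrosis replicates 13 and 16 ended that call (adjusted p at most 0.0711). Of the platelet markers 5 summed to 9.88 to 35.1 CPM in cirrhotic and 12.3 to 47.6 CPM in healthy libraries, and none of the 4 that could be tested was called between these groups. In acute and fibrosis libraries they summed to 4.41 to 8.56 and 5.28 to 11.3 CPM, below every healthy library. Against healthy LSECs, Pf4 was called higher and Itga2b lower at both stages, and Gp9 lower after acute injury. The part of platelets in Selp was not tested.

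In the RefSeq gene order Icam1 neighbours Icam4 and Icam5, relatives best known from red cells and neurons. Icam4 averaged 86.7 ± 46.7 CPM in healthy (SD, n = 6) and 0.893 ± 0.367 CPM in acute libraries (SD, n = 5; log2 fold change -6.53, SE 0.502, limma-voom adjusted p = 2.23e-07), and Icam5 68.1 ± 45.6 and 1.14 ± 0.575 CPM (log2 fold change -5.80, SE 0.61, adjusted p = 3.29e-06). Neither was called between cirrhotic and healthy LSECs.

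**Figure D2:**
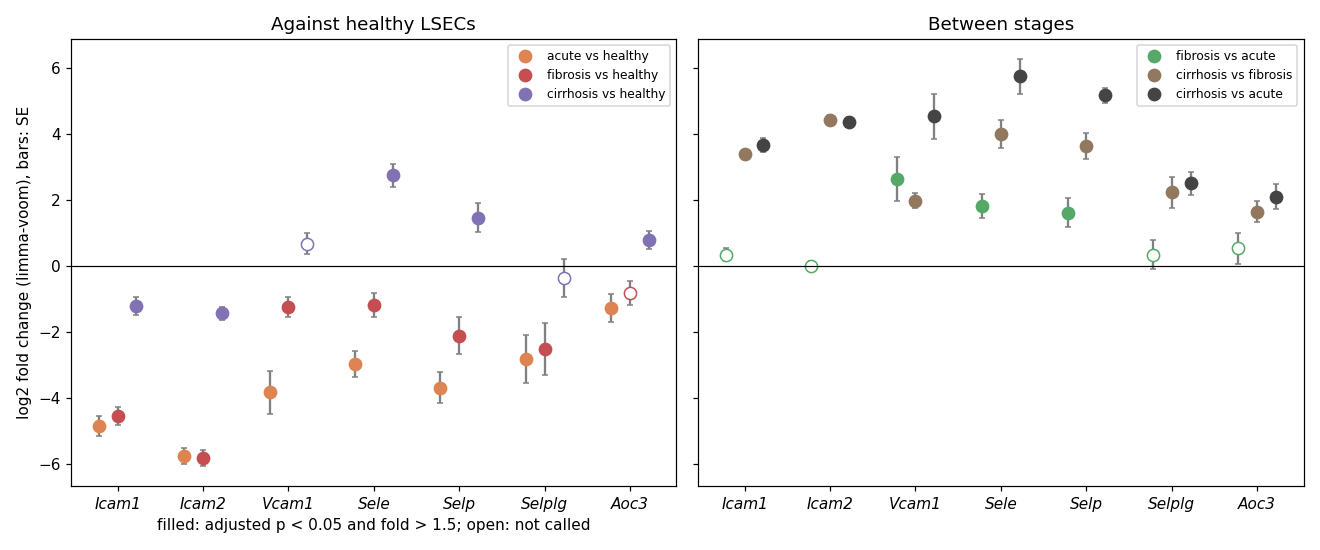
Log2 fold changes of the 7 genes from limma-voom against healthy LSECs (left) and between stages (right), with standard errors as bars, filled points for called genes and open points for genes not called. Against healthy LSECs each gene lay below 0 after acute injury and at fibrosis, and Sele (2.74) and Selp (1.46) were the farthest above 0 in cirrhosis.

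Selplg (ENSRNOG00000000699), mainly a leukocyte gene, varied most of the 7 within healthy libraries, from 7.83 over a median of 29.1 to 111.4 CPM. Acute libraries had 4.71, 3.84, 2.92, 3.92 and 3.03 CPM, and fibrosis libraries 12.9, 3.9, 4.82, 3.67 and 1.81 CPM, with replicate 12 the highest and inside the healthy range. It was 7.05-fold lower after acute injury and 5.72-fold lower at fibrosis (log2 fold changes -2.82 and -2.51, SE 0.731 and 0.782, limma-voom adjusted p = 0.00359 and 0.0114). Cirrhotic libraries ranged from 11 over a median of 23.8 to 30.1 CPM, with no difference called from healthy LSECs (log2 fold change -0.36, SE 0.575, limma-voom adjusted p = 0.612).

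Leukocyte markers were examined beside Selplg. In healthy libraries 1, 2, 4, 3, 6 and 5, from the highest to the lowest Selplg, 10 lymphocyte markers summed to 215, 144, 62.8, 33.9, 20.9 and 15.5 CPM, which is the same order. The 12 macrophage markers summed to 3370, 3350, 4450, 409, 1850 and 539 CPM in those libraries, which is not that order. Lymphocyte markers summed to 0.53 to 2.45 CPM in acute and 2.36 to 19.4 CPM in fibrosis libraries, where replicate 12 was again the highest, and macrophage markers to 88.6 to 257 and 40 to 252 CPM, with Timd4 at 0 in both groups. Fibrosis replicate 15, below only replicate 12 in Selplg at 4.82 CPM, had the lowest lymphocyte sum (2.36 CPM) and the highest macrophage sum (252 CPM). In cirrhotic libraries lymphocyte markers summed to 14.2 to 35 CPM and macrophage markers to 1020 to 3640 CPM. There replicate 5 had the most Selplg (30.1 CPM) and replicate 2 the highest lymphocyte sum (35 CPM, against 33.9 in replicate 5). Within the acute libraries the orders differed, since replicate 4, second in Selplg at 3.92 CPM, had the lowest lymphocyte sum (0.53 CPM) and replicate 2 the highest (2.45 CPM). The 8 neutrophil markers summed to 3.85 to 45.6 CPM in healthy, at most 2.81 CPM in acute and fibrosis and 2.79 to 14.6 CPM in cirrhotic libraries. Csf3r was the largest part of that sum, at 13.6 ± 15.1 CPM in healthy and 4.32 ± 3.4 CPM in cirrhotic libraries (SD, n = 6 each), and was not called between them. Of the 4 neutrophil markers tested there, Ngp, S100a8 and S100a9 were called higher in cirrhosis, S100a9 at 2.59 ± 1.3 against 0.536 ± 0.635 CPM (SD, n = 6 each). Of all genes tested there, 27.1% were called higher. The share of Selplg that came from leukocytes in the preparations was not tested.

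**Figure D3:**
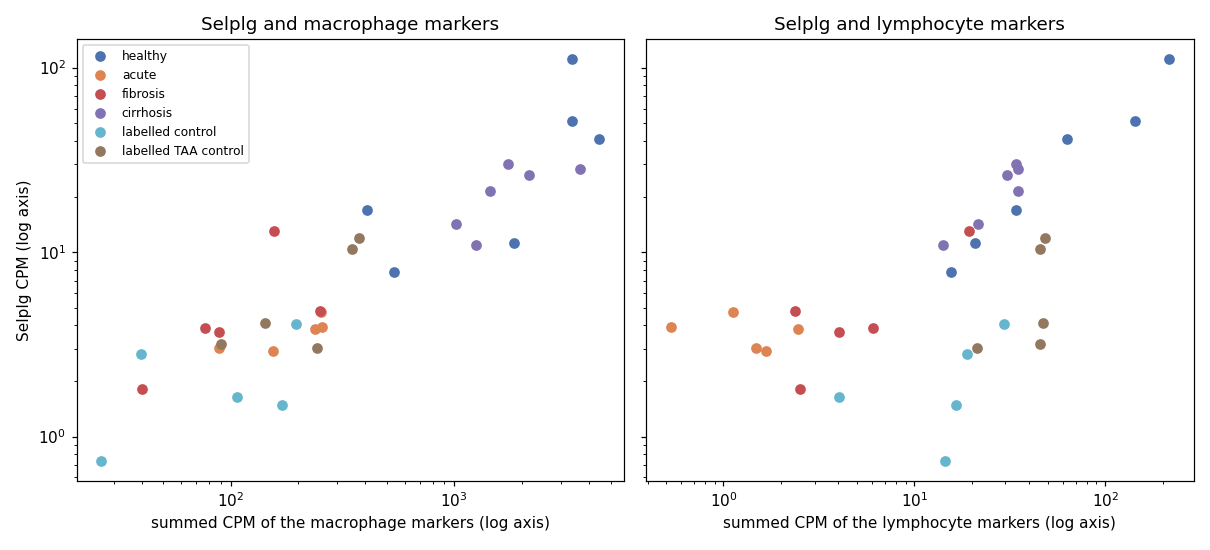
Selplg in CPM against the summed CPM of 12 macrophage markers (left) and 10 lymphocyte markers (right) in each of the 32 libraries, both axes logarithmic and colours for groups. Healthy replicate 1, with 111.4 CPM of Selplg, also had the highest lymphocyte sum of 215 CPM.

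Aoc3 (ENSRNOG00000051307) had expected counts that were not whole numbers in 32 of 32 libraries, as arises when RSEM divides reads between a gene and others, so its values are uncertain to that extent. The other 6 had whole counts throughout. Healthy libraries ranged from 1.91 over a median of 3.48 to 5.32 CPM, acute libraries had 1.33, 1.33, 2.5, 0.507 and 2.43 CPM, and fibrosis libraries 3.01, 2.37, 0.864, 1.49 and 2.3 CPM. Both stages overlapped with the healthy range. Aoc3 was 2.42-fold lower after acute injury (log2 fold change -1.28, SE 0.422, limma-voom adjusted p = 0.0147), and its log2 fold change of -0.81 at fibrosis was not called (SE 0.357, adjusted p = 0.0569). With library size in place of TMM factors, the acute fall was not called either (log2 fold change -0.85, limma-voom adjusted p = 0.0726).

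In cirrhosis Aoc3 ranged from 4.67 over a median of 5.36 to 10.4 CPM, with replicate 1 apart from the others. It was 1.73-fold above healthy LSECs (log2 fold change 0.79, SE 0.273, limma-voom adjusted p = 0.0246), a call that was lost without healthy replicate 2 (0.72, adjusted p = 0.0544) and without healthy replicate 4 (0.63, adjusted p = 0.063). VAP-1 and VCAM-1 are known from pericytes, smooth muscle and stellate cells as well as from endothelium. The 5 smooth muscle markers summed to 22.6 to 67.9 CPM in cirrhotic and 14 to 17.3 CPM in healthy libraries, and the 8 stellate and fibroblast markers to 612 to 1900 and 282 to 783 CPM. Of the latter 6 of 8 were called higher and none lower, beside 27.1% and 24.7% of all genes tested. In acute and fibrosis libraries smooth muscle markers summed to 4.98 to 23.4 and 17.1 to 148 CPM. Stellate and fibroblast markers summed to 1310 to 2130 and 1280 to 1700 CPM there. Of these, Reln was called higher and 5 lower after acute injury, and Col1a1 and Reln higher and 3 lower at fibrosis. Acta2, Myh11 and Tagln were called higher at fibrosis and in cirrhosis. The part of such cells in Aoc3 and Vcam1 was not tested.

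In some groups 1 library was the highest in several of the genes. Healthy replicate 3 was the highest of its group in 5 of the 7 genes (Icam1, Vcam1, Sele, Selp and Aoc3), fibrosis replicate 15 in 4 (Icam1, Icam2, Vcam1 and Sele) and acute replicate 8 in 3 (Icam1, Vcam1 and Sele). Each of these libraries also had the lowest TMM factor of its group (0.712, 1.07 and 0.989). A low factor raises every CPM of a library, and its part here was not tested. Replicate 1 of the group labelled control was the highest in 4 (Icam2, Vcam1, Sele and Selp). In the cirrhosis group and the group labelled TAA control no library was the highest in more than 2 genes. These are descriptions of the libraries, and the genes of 1 library are not independent of each other.

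In the TAA experiment the selectins had the widest differences of the 7 genes, and 5 of the 7 were called, where 27.6% of all genes tested were. Icam1 and Selplg were called higher and Sele, Selp and Aoc3 lower, beside 12.7% and 14.9% of all genes. Values are given for the group labelled TAA control relative to the group labelled control, without a statement on which received TAA. Sele was at 134.1, 79.9, 63.5, 50.3 and 78.9 CPM in libraries 1 to 5 labelled control, and at 16.3, 19.6, 11.8, 13.7 and 14.9 CPM in libraries 10, 12, 13, 14 and 15 labelled TAA control. Its groups lay well apart, with a log2 fold change of -2.35 (SE 0.251, limma-voom adjusted p = 5.97e-05). Selp was at 364.4, 293.5, 307.5, 303.4 and 348.2 CPM against 52, 44.9, 35.9, 88.7 and 81.4 CPM, a log2 fold change of -2.50 (SE 0.234, limma-voom adjusted p = 2.81e-05). Neither selectin overlapped between the groups, and 4.73% of all genes tested had a larger absolute change than Selp.

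Aoc3 went the same way, with 6.34, 21.9, 9.47, 11 and 10.4 CPM against 4.79, 3.44, 4.12, 5.33 and 5.38 CPM (log2 fold change -1.27, SE 0.324, limma-voom adjusted p = 0.00788), and again the groups did not overlap. In these 3 genes and in 35.4% of all genes tested the groups were free of overlap. Vcam1 ranged from 719.8 to 2298 CPM and from 728.3 to 1309 CPM and was not called (log2 fold change -0.53, SE 0.286, limma-voom adjusted p = 0.145).

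The ICAM genes differed little. Icam1 was at 2969, 2467, 3277, 2414 and 1953 CPM in the group labelled control and at 3246, 3429, 3219, 4915 and 4912 CPM in the group labelled TAA control, where replicates 14 and 15 were the highest. Its log2 fold change of 0.59 (SE 0.174, limma-voom adjusted p = 0.0164) passed the fold threshold narrowly, and it and that of Selplg (1.51, SE 0.554, adjusted p = 0.0422) were not called when replicates 14 and 15 were averaged as 1 library (0.50 and 1.27, adjusted p = 0.0401 and 0.0657). With both calls lost, 3 genes were left. Selplg was at 1.48, 1.65, 4.06, 0.739 and 2.8 CPM in libraries labelled control and at 3.02, 4.14, 3.19, 10.3 and 12 CPM in those labelled TAA control, where lymphocyte markers summed to 4.03 to 29.4 and 21.2 to 48.2 CPM and macrophage markers to 26.4 to 196 and 90.6 to 373 CPM. Icam2 ranged from 140.9 to 193.7 CPM and from 180.2 to 201.8 CPM, a difference below the fold threshold (log2 fold change 0.27, SE 0.0906, limma-voom adjusted p = 0.0295). Between the same groups, stellate and fibroblast markers summed to 2060 to 5090 CPM in libraries labelled control and 342 to 536 CPM in those labelled TAA control, smooth muscle markers to 54.3 to 221 and 8.47 to 11 CPM, and the 10 early-response genes to 12800 to 26400 and 46000 to 68100 CPM. LSEC markers summed to 17600 to 21500 and 20200 to 26500 CPM. Their part in these differences was not tested.

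Genes that act with the 7 were taken from lists. In the 6 lists below, 78.6% to 100% of genes tested were called after acute injury, beside 73.4% of all genes. At fibrosis 77.8% to 100% were called, beside 70.2%, and in cirrhosis 36.4% to 57.1%, beside 51.8%. Of all genes tested, 37.9%, 34.9% and 24.7% were lower and 35.5%, 35.3% and 27.1% higher. A count of calls by itself therefore sets no list apart. Weibel-Palade bodies, the storage granules of P-selectin, are built around von Willebrand factor (Vwf), which averaged 2303 ± 1067 CPM in healthy (SD, n = 6), 10.7 ± 4.93 in acute (n = 5), 25.1 ± 10.1 in fibrosis (n = 5) and 2353 ± 867.3 CPM in cirrhotic libraries (n = 6). Its log2 fold change was -7.74 after acute injury and -6.43 at fibrosis (SE 0.39 and 0.367, limma-voom adjusted p = 8.32e-09 and 2.67e-08), and it was not called in cirrhosis. Rab3d, a GTPase of secretory granules, fell by 4.68 and 4.58 on the log2 scale at the first 2 stages. Of the 8 genes of this list 6 were called lower after acute injury and at fibrosis, and Angpt2 and Cd63 higher. In cirrhosis Angpt2, which encodes a stored Tie2 ligand, and Rab27a were higher and Hps6 and Rab3d lower. Angpt2 rose by a log2 fold change of 1.46 in cirrhosis and Hps6 had one of -1.74 (SE 0.248 and 0.249, limma-voom adjusted p = 0.000461 and 0.000181).

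Of the 12 leukocyte counter-receptors tested after acute injury and at fibrosis, 7 were lower and 3 higher at each stage, Selplg itself among the former. Itgal, the α chain of LFA-1, had log2 fold changes of -3.85 and -3.80, and Spn, the sialomucin CD43, of -3.73 and -3.68. Higher were Itgax, Siglec10 and Itgb1, the β1 integrin chain that endothelium and other adherent cells also carry. In cirrhosis none of the 11 tested was lower, and Itgb1 was higher with a log2 fold change of 1.12 without overlap (SE 0.204, limma-voom adjusted p = 0.00073).

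Among other endothelial adhesion and transmigration molecules, 9 of 14 were lower and 2 higher after acute injury, 8 lower and 3 higher at fibrosis, and 3 lower and 4 higher in cirrhosis. In all, 78.6%, 78.6% and 50% of them were called, close to the shares of all genes tested. Stab1, a scavenger receptor of LSECs that also binds lymphocytes, had log2 fold changes of -5.04, -4.82 and -2.04 at the 3 stages (limma-voom adjusted p at most 6.72e-05). Alcam, an immunoglobulin-superfamily ligand of CD6, went the other way, from 5.09 ± 2.53 CPM in healthy to 90.6 ± 33.1 in acute and 70.1 ± 5.08 CPM in fibrosis libraries. Its log2 fold changes were 4.20 and 3.94 (SE 0.344 and 0.251, limma-voom adjusted p = 3.94e-07 and 6.48e-08). Cd99, which acts in diapedesis, was lower in cirrhosis by a log2 fold change of -1.59 (SE 0.284, limma-voom adjusted p = 0.000621). It was also called lower at the first 2 stages. Its means were 257.9 CPM in healthy, 75.96 in acute, 68.38 in fibrosis and 78.11 CPM in cirrhotic libraries.

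Enzymes that build selectin ligands were lower in 7 of 10 cases after acute injury and at fibrosis, with Gcnt1 alone higher, and in cirrhosis 3 were lower and Gcnt1 again higher. Tpst2, a sulfotransferase for the tyrosines of PSGL-1, had log2 fold changes of -2.81, -3.07 and -1.32. The sialyltransferases St3gal4 (-2.53 after acute injury) and St3gal3 (-2.42 at fibrosis and -1.79 in cirrhosis) were the others with the largest changes. That holds among called genes without overlap and with a mean log2 CPM of at least 3. Fut7, below that level, was also called lower after acute injury and at fibrosis.

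Of 18 cytokine, receptor and NF-κB genes, 12 were lower and 3 higher after acute injury, 11 and 3 at fibrosis, and 5 and 3 in cirrhosis. Irf1, a transcription factor that takes part in Vcam1 induction, was at 3989 ± 775.5 CPM in healthy, 90.4 ± 26.5 in acute, 149.3 ± 60.7 in fibrosis and 2169 ± 372.6 CPM in cirrhotic libraries, with log2 fold changes of -5.45, -4.74 and -0.87 (limma-voom adjusted p = 1.77e-09, 1.1e-08 and 0.00126). Tnfrsf1b, a TNF receptor, had a log2 fold change of -3.61 after acute injury, and Tnf of -4.02 at fibrosis. Il1r1, the IL-1 receptor, was higher at each of the 3 stages, with a log2 fold change of 1.08 in cirrhosis (SE 0.209, limma-voom adjusted p = 0.00106). Of 7 cytoskeletal anchors and sheddases of adhesion molecules, 5 were higher and 1 lower after acute injury and at fibrosis, and 4 higher and none lower in cirrhosis. Actn1, an α-actinin, had log2 fold changes of 2.79 and 2.74 at the first 2 stages and Ezr, which encodes ezrin, of -3.13 and -2.73.

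**Figure D4:**
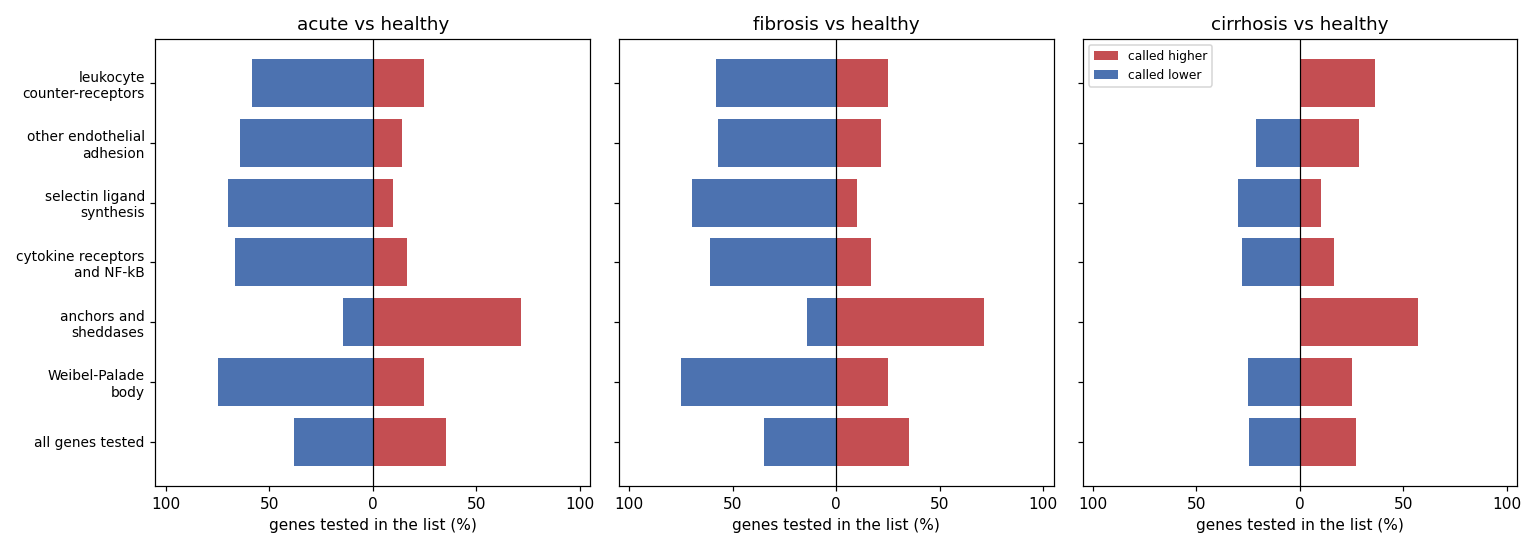
Share of the genes tested in each of 6 lists that were called higher (red, to the right) or lower (blue, to the left) against healthy LSECs at each stage, with all genes tested in the bottom row. All genes split almost evenly at each stage, at 35.5% higher and 37.9% lower after acute injury, while 5 of 7 anchors and sheddases were higher and 6 of 8 Weibel-Palade body genes lower there.

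For each gene, the 3 genes with a proper symbol and a mean log2 CPM of at least 3 that followed it most closely over the 22 CCl4 libraries were found by Pearson's correlation of log2 CPM, given as a description. The libraries fall into groups that differ in most genes, so that the pooled values mostly reflect group levels, and values after subtraction of group means are given beside them. Icam1 was closest to Kdm6b, Midn and Bcr, with r of 0.993, 0.992 and 0.992 (0.84, 0.756 and 0.84 within groups). Icam2 was closest to Acvrl1, Nos3 and Ece1 (0.997, 0.996 and 0.996, and 0.775, 0.735 and 0.796 within groups). Vcam1 came next to Aff1, Cxcl9 and Gem, at 0.958, 0.954 and 0.948 (0.818, 0.766 and 0.854 within groups). For Sele the list was Cpne8, Filip1 and Plat, between 0.946 and 0.958, and for Selp it was Abi3bp, Timp2 and Itgb4, between 0.951 and 0.953. Within groups these fell to between 0.45 and 0.64 for Sele and between 0.496 and 0.777 for Selp. Selplg kept its likeness within groups, with Rac2, Plcg2 and Laptm5 at 0.98, 0.977 and 0.975 pooled and 0.968, 0.933 and 0.959 within groups. For Aoc3 the genes were Rel, Hecw2 and Ckap2l, between 0.862 and 0.87 pooled and between 0.509 and 0.532 within groups.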

How the data were processed

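RNA of rat LSECs was sequenced in 32 libraries (CCl4 experiment 22, TAA experiment 10). From stranded poly(A) libraries, aligned by STAR against Rnor_6.0, the authors deposited the expected counts of RSEM per gene, which are not normalized and can hold fractions of a read. Per the labels, processing also used FastQC and Trim Galore. The annotation and tool versions are not given in the sources used here.

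Expected counts were rounded. Genes were kept with filterByExpr, scaled with TMM factors and tested with limma-voom, as the study's methods name, on the libraries of the 2 groups compared, without covariates. The study's unadjusted p was replaced by Benjamini-Hochberg adjusted values over all genes tested, with a fold-change above 1.5. R 4.3.3, limma 3.58.1, edgeR 4.0.16, DESeq2 1.42.0, Python 3.11.15 and matplotlib 3.10.9 were used, and log2 CPM carried a pseudocount of 0.5. The tests were tried on simulated counts in which few genes changed, equally many up and down. In these data most genes were called against healthy LSECs, so that trial does not show how the tests perform here. Groups came from the labels, the duration of cirrhosis from the series description, and replicate numbers from the titles. For some libraries labelled TAA control the number in the title differs from that in the description. The study describes its replicates as independent LSEC isolations, so p-values measure the spread between isolations.

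The 7 genes and the lists were chosen with earlier results of these data known. Named list genes are the 2 largest changes per list and stage among called genes without overlap and with a mean log2 CPM of at least 3. Others were named after their values were seen. These are Csf3r, Fut7, Itgax, Siglec10 and the pan-endothelial, LSEC, platelet, stellate and smooth muscle markers. Also among them are Angpt2, Cd63 and Cd99 at the first stages, and the genes counted in groups of up to 5. Of the lists, Aoc2, Itgam, Pecam1, Col1a2 and Gp1bb matched no row or several and were left out, and an item withheld for evaluation is not reported here. Hepatocyte markers summed to 147 to 939 CPM in acute, 1320 to 5280 in fibrosis, 2950 to 14500 in cirrhotic and 1290 to 27500 CPM in healthy libraries, and cholangiocyte markers to at most 108 CPM. Gene lengths were not used, so levels are not compared between genes per length.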

Additional observations from a re-analysis of the deposited data

Results flagged for a closer look

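Of 42 groups of libraries looked at (7 genes in 6 groups), 2 had an extreme library whose gap passed Dixon's 95% critical value. Chance alone flags about 2.1 of 42. Fibrosis replicate 15 had 16.4 CPM of Sele, with 6.99 CPM in the next library. Cirrhotic replicate 1 had 10.4 CPM of Aoc3, with 6.27 CPM in the next.

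In 3 genes, stages of the CCl4 model were called in opposite directions against the same healthy libraries and also differed from each other directly. How many of all genes tested did so was not counted. Calls against healthy LSECs covered 51.8% to 73.4% of all genes, so the pattern by itself sets no gene apart. Sele was lower than in healthy LSECs after acute injury and at fibrosis and higher in cirrhosis, and cirrhosis differed from fibrosis by a log2 fold change of 3.99 and from acute injury by 5.73. Selp did the same, with log2 fold changes of 3.63 and 5.16. Aoc3 was lower after acute injury and higher in cirrhosis, with a log2 fold change of 2.10 between these stages. All were called with limma-voom when every library and TMM factors were used. For Aoc3 the acute call was lost with library size alone, and the cirrhosis call without healthy replicate 2 or 4.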

How the results depend on the processing

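The number of the 7 genes called stayed within 1.5 times of the value reported in each alternative for acute, fibrotic and cirrhotic against healthy LSECs and for cirrhosis against the earlier stages. Leaving out each library gave 7 genes after acute injury, 6 to 7 at fibrosis, 4 to 6 in cirrhosis and 7 for cirrhosis against either earlier stage. Between fibrosis and acute injury 3 genes were called, but 1 in a single fit over the 4 CCl4 groups and 1 to 3 with a library left out (1 without acute replicate 1 or 2). In the TAA experiment 5 were called, 3 to 5 with a library left out (3 without replicate 2 or 5 labelled control or replicate 14 or 15 labelled TAA control), and 3 with replicates 14 and 15 averaged, an alternative added after seeing the data. Of 560 values of single genes under other settings, 537 kept direction and call, 11 lost and 9 gained a call and 3 changed sign. These 3 were Icam2 between fibrosis and acute injury, at -0.07 in the single fit, -0.0134 without a low-count filter and -0.0485 with library size alone. With a library left out it ranged from -0.0753 to 0.0964, Selplg there from -0.0609 to 0.6772, and Selplg between cirrhotic and healthy LSECs from -0.7255 to 0.0681 (the latter without healthy replicate 1), none of them called. The cause was not tested. Over all genes, 1529 were called between fibrosis and acute injury, 746 in the single fit, 2346 with quality weights per library, 1011 without acute replicate 1 and 2826 without the fold threshold, which raised the TAA count from 3970 to 7139.

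Library size without TMM moved the median of all genes from -0.09 to 0.32 after acute injury, -0.03 to 0.37 at fibrosis and 0.07 to 0.42 in cirrhosis, and the share of called genes that were higher from 48.4% to 58.2%, 50.3% to 60.9% and 52.2% to 71.3%. Sele was then not called at fibrosis (log2 fold change -0.79, limma-voom adjusted p = 0.0654) and Vcam1 was in cirrhosis (1.03, adjusted p = 0.0113).

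Same-numbered libraries come from different rats and did not deviate together in every pair (correlations of deviations from -0.24 to 0.29). With the replicate number as a block, 7, 6 and 7 genes were called for acute against healthy, cirrhotic against healthy and cirrhotic against acute LSECs, where Vcam1 was added in cirrhosis against healthy (log2 fold change 0.68, limma-voom adjusted p = 0.0217). Few counts limit Aoc3 and, after injury, Sele and Selplg most.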
